A study of Homo sapiens with 6 samples.

Results

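*HIF3A*, the gene of hypoxia-inducible factor 3 alpha, is 1 of the 1161 genes in a table of expression in dormant and proliferating breast cancer cells from the mouse brain. It was chosen as a hypoxia-pathway gene because its normalized read count differed widely between both cell populations in these libraries. Its own levels are therefore given as a description, with no test. The cells were of MDA-MB-231, a human breast adenocarcinoma line, tagged with GFP and labelled with the vital dye CellVue Claret (CV), which is lost as cells divide. Cells that had kept the dye (GFP+CV+) were taken as dormant, and those that had lost it (GFP+CV-) as proliferating. All cells had been given to female C.B-17 SCID mice, aged 6 to 8 weeks, through the internal carotid artery, and were sorted from dissociated brain tissue at day 28. Each population had 3 libraries, each made from pooled mice (10, 10 and 9), and libraries of the same replicate number came from the same pool. The dormant population is defined by the dye alone, every library averages over many animals, and a single cell line was used.

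Hypoxia-inducible factors are pairs of an oxygen-regulated alpha subunit and the stable partner ARNT, and belong to the bHLH-PAS family of transcription factors. When oxygen is present, prolyl hydroxylases mark the alpha subunit, the VHL ubiquitin ligase binds it, and it is degraded. When oxygen is low, the pair binds hypoxia response elements and raises genes of glycolysis, vessel growth and iron handling. *HIF3A* is the third alpha subunit gene. It makes many splice forms, some of which lack a transactivation domain and can restrain the other alpha subunits, and it is itself a hypoxia-responsive gene.

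*HIF3A* (ENSG00000124440.15) lies on the plus strand of chromosome 19, chr19:46297042-46343433 on GRCh38. In GENCODE release 44 it is a protein-coding gene with 19 transcripts, of which 6 are coding, that start at 16 different positions, and its exons cover 8375 bases. The table has one value per gene and library, so the splice forms could not be told apart. A small nuclear RNA pseudogene and a long noncoding RNA lie inside *HIF3A* on the minus strand. Neither is in the table, and the library protocol kept no strand, so reads of the noncoding RNA and of *HIF3A* could not be separated where their exons meet.

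RefSeq places *HIF3A* starts at 3 positions of GRCh38.p14, and the 250 bases before each were searched for the core of the hypoxia response element, ACGTG or GCGTG, on either strand. The CACGTG palindrome counts on both strands. The 2 upstream sequences below show the start with matches, chr19:46296792-46297041, and a start without any, chr19:46298126-46298375, both on the plus strand, with the core in capitals.
HIF3A start 1: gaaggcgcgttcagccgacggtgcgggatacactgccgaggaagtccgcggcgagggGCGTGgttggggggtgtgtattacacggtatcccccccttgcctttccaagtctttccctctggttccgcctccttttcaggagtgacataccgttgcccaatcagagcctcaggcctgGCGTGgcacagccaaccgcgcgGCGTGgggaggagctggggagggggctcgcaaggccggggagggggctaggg
HIF3A start 2: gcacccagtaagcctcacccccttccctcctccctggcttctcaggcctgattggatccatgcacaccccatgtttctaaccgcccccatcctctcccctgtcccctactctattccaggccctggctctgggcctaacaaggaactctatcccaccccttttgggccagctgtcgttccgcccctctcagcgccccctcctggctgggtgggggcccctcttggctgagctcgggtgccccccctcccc
The first sequence held 3 matches, all of them GCGTG, and the second held 0. The sequence before the third start, chr19:46303369-46303618, also held 0. Of 35116 RefSeq promoters of the same length, 43.2% held at least 1 match and 7.76% at least 3. A match describes the letters only, and which start was used in these cells was not measured.

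The deposited read counts of *HIF3A* were 0.22, 0 and 6 in proliferating replicates 1, 2 and 3, and 125, 549 and 787.5 in dormant replicates 1, 2 and 3. After division by the size factors of the libraries, the normalized read counts were 0, 0 and 4.88 in proliferating cells. In dormant cells they were 119, 527 and 1089. All dormant libraries lay above all proliferating libraries, and *HIF3A* was close to the limit of detection in the proliferating ones. A count of 0 allows up to 3 counts, or 2.17 and 3.23 normalized read counts in proliferating replicates 1 and 2, and the 6 counts of replicate 3 had an exact Poisson 95% interval of 2.20 to 13.1. The intervals of the dormant counts were 104 to 149, 504 to 597 and 734 to 845. These intervals and floors cover counting error only. Most whole-number counts from 1 to 50 in the libraries were even (64.2% to 87.9%), so single counts need not be independent.

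The mean normalized read count of *HIF3A* was 578 ± 487 in dormant cells and 1.63 ± 2.82 in proliferating cells (SD over 3 libraries each), a ratio of means of 356. Within the pools of mice, dormant cells were at least 54.7-fold higher in replicate 1 and at least 163-fold higher in replicate 2, against a floor of 3 counts. In replicate 3, where *HIF3A* was counted in both populations, the ratio was 223. The 95% counting interval of the proliferating count alone gave 103 to 608. This interval and the bounds of replicates 1 and 2 take the dormant count as exact. On the scale of log2(normalized read count + 1), the mean difference over the 3 pairs was 7.83. The proliferating library with the highest *HIF3A* and the dormant library with the highest *HIF3A* were both from the pool of 9 mice.

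**Figure D1:**
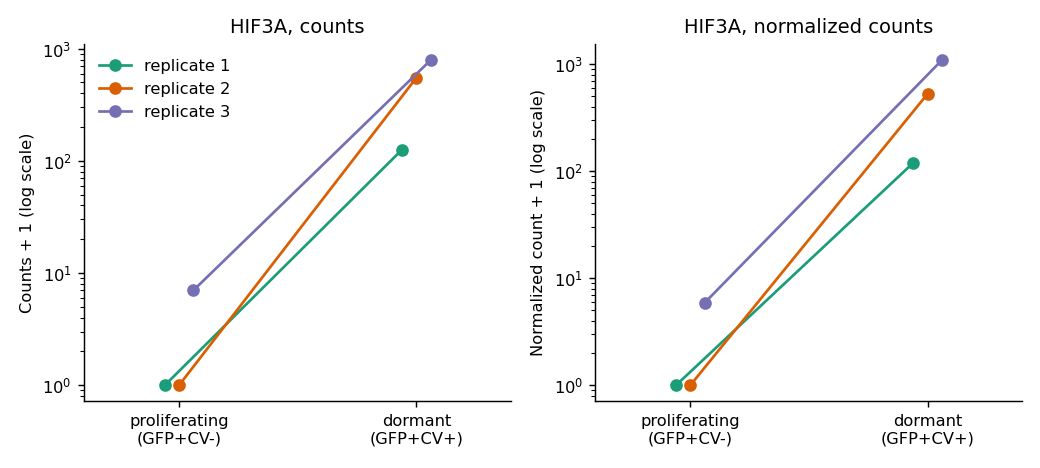
Read counts (left) and normalized read counts (right) of HIF3A in the 6 libraries, each with 1 added, on log axes. Points are libraries, and a line joins the 2 populations sorted from the same pool of mice. Every dormant point is above every proliferating point, and the dormant normalized read counts run from 119 to 1089.

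The dormant libraries also differed widely among themselves. *HIF3A* was 4.43-fold higher in dormant replicate 2 and 9.16-fold higher in dormant replicate 3 as compared to dormant replicate 1, and replicate 3 alone held 62.8% of the summed dormant level. The coefficient of variation over the dormant libraries was 84.2%, as compared to a median of 31.4% over the 576 listed genes with a higher mean in dormant cells, of which 36 had a larger one. The ratio of dormant replicate 3 to replicate 1 had a median of 1.42 over these 576 genes, and 10 of them had a larger ratio than *HIF3A*. Dormant replicate 3 was the highest of the dormant libraries for 378 (65.6%) of the 576 genes. Without it the ratio of means of *HIF3A* was 199.

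*HIF3A* had the 8th largest difference among the 1161 listed genes on the log2(mean normalized read count + 1) scale. Its value of 7.79 stood between *SPARCL1* (7.82, the 6th), a secreted matrix glycoprotein of astrocytes, and *DCN* (7.67, the 9th), the matrix proteoglycan decorin. These values differ by far less than the spread of *HIF3A* between replicates, whose log2 levels had an SD of 1.62 in dormant and 1.48 in proliferating cells. By its dormant level *HIF3A* was not an abundant transcript. Its dormant mean ranked 853rd of 1161, and only 16 genes had a lower proliferating mean. Per kilobase of exon, *HIF3A* had 69.0 normalized read counts in dormant and 0.194 in proliferating cells, as compared to a median dormant level of 439 per kilobase over the 574 genes higher in dormant cells with an annotated length. Of these, 541 were above it.

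**Figure D2:**
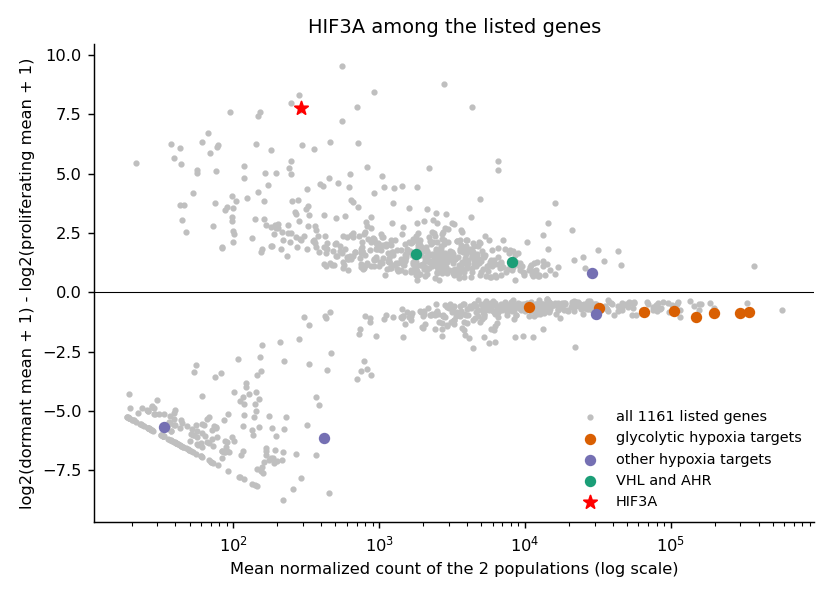
Difference between the populations, as log2(dormant mean + 1) minus log2(proliferating mean + 1), against the mean normalized read count on a log axis, for the 1161 listed genes. HIF3A is the star at 7.79, the 8th highest difference, while VHL, AHR and the hypoxia targets are the coloured points.

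Which other genes of the pathway moved was asked over the whole table with edgeR's quasi-likelihood test. Its genes are those the authors had called different between these same libraries. Accordingly, 576 genes (49.6%) rose and 581 (50%) fell in dormant cells at an adjusted p under 0.05, the populations did not overlap in 1152 genes (99.2%), and a call of a listed gene carries little beyond its size and direction. The 4 pathway lists used here held 113 genes, of which 14 were in the table. Of these 14, 3 were higher and 11 lower in dormant cells, and none of the 14 had overlapping populations. When p-values were adjusted over the 62700 genes of the reference gene table, none of the 14 passed in edgeR (adjusted p from 0.174 to 0.470) or limma, all 14 passed in DESeq2, and all 14 had an unadjusted edgeR p under 0.05.

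Of 25 genes of oxygen sensing and the HIF machinery, only *VHL* was in the table. *VHL*, the part of the ubiquitin ligase that recognizes hydroxylated alpha subunits, had normalized read counts of 1342, 651 and 623 in proliferating and 3347, 3098 and 1611 in dormant libraries. The lowest dormant library was above the highest proliferating one, by less than the spread within either population. The means were 872 ± 408 and 2685 ± 939 (SD, n = 3), a log2 fold change of 1.62 (edgeR adjusted p = 0.00870). *HIF1A*, *EPAS1*, *ARNT* and the prolyl hydroxylase genes were not among the listed genes, and their levels were not analysed here.

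Of 21 genes of the bHLH-PAS family, *AHR* was listed. *AHR*, the ligand-activated aryl hydrocarbon receptor that also pairs with ARNT, had normalized read counts of 4479, 5105 and 4796 in proliferating and 10700, 8274 and 15453 in dormant libraries. Dormant replicate 3 was the highest, as it was for *HIF3A*, but replicate 1 was not the lowest. The means were 4794 ± 313 and 11476 ± 3652 (SD, n = 3), a log2 fold change of 1.26 (edgeR adjusted p = 0.00396). Per kilobase of exon the dormant level was 1425 for *AHR* and 537 for *VHL*, both above the 69.0 of *HIF3A*.

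The listed glycolytic targets of the pathway moved opposite to *HIF3A*. Of 22 genes, 8 were listed, and all 8 fell in dormant cells, as did 50% of all listed genes. Their log2 fold changes were -1.05 to -0.61, with a median of -0.82. The median was -0.96 over the listed genes lower in dormant cells and -0.33 over all listed genes, and the first of these is a slightly larger fall than that of the 8 genes. *LDHA*, which makes lactate from pyruvate, fell from normalized read counts of 181561, 173996 and 243247 in proliferating to 97536, 92918 and 98053 in dormant libraries, a log2 fold change of -1.05 (edgeR adjusted p = 0.00322). *PGAM1*, a phosphoglycerate mutase, went from 39710, 33597 and 45562 to 21627, 25481 and 27930, a log2 fold change of -0.66 (adjusted p = 0.00578). The populations were apart in each of the 8 genes, as they were in 99.2% of all listed genes. *LDHA* was nearly level across the dormant libraries, unlike *HIF3A*. The other listed members were *TPI1* (log2 fold change -0.87), *ENO1* (-0.86), *ALDOA* (-0.83), *GAPDH* (-0.82), *PGK1* (-0.79) and *ENO2* (-0.61), which are enzymes of the later steps from fructose bisphosphate to pyruvate. Several of these have processed pseudogenes, and multi-mapping reads were counted, so their levels are less certain than those of single-copy genes. The 8 symbols had 9 entries among the listed genes. For the repeated symbol, the entry with the higher level over both populations was used, and the other is not described here.

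Of 50 other targets, 4 were listed, of which 1 rose and 3 fell. *NDRG1*, a stress-response gene, had normalized read counts of 19242, 23402 and 19707 in proliferating and 29162, 33528 and 47386 in dormant libraries, a log2 fold change of 0.82 (edgeR adjusted p = 0.00625). With size factors taken as median ratios over the table, which moved the median of all listed genes from -0.33 to -0.91 and the calls to 346 higher and 585 lower, the value for *NDRG1* was 0.21 with an adjusted p of 0.249. *TIMP1*, an inhibitor of matrix metalloproteinases, fell with a log2 fold change of -0.93 (adjusted p = 0.00389). *ITGB2*, the beta subunit of leukocyte integrins, had 1026, 1281 and 184 normalized read counts in proliferating libraries and 2.85, 24.0 and 5.53 in dormant ones. *POU5F1*, a pluripotency factor with several pseudogenes and therefore uncertain, had 24.6, 152 and 24.4 in proliferating and 0, 0.96 and 0 in dormant libraries, and was at least 20.4-fold lower in dormant cells. Proliferating replicate 2 carried that bound, which was 7.45-fold without it, and within the pools of mice the bounds were 8.64, 52.8 and 5.88.

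**Figure D3:**
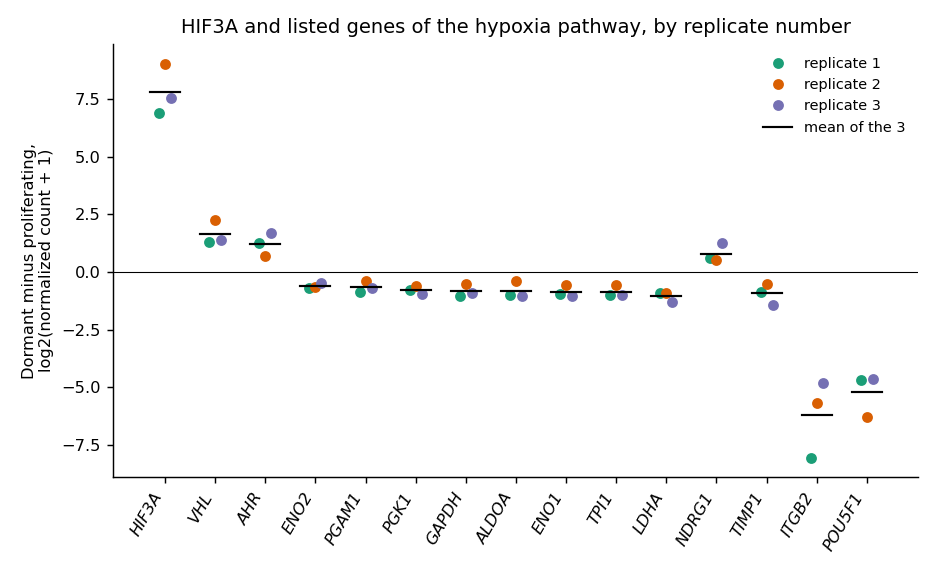
Dormant minus proliferating difference of log2(normalized read count + 1) for HIF3A and the 14 listed genes of the pathway. Points are the 3 replicate numbers, each a pool of mice, and bars are their means. HIF3A averages 7.83, the other genes that lie above 0 are VHL, AHR and NDRG1, and the 8 glycolytic genes lie between 0 and -1.5.

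Sequence before the RefSeq starts was at hand for 10 of the 14 listed pathway genes, and all of them but *PGAM1* held the ACGTG or GCGTG core before at least 1 start. The largest number was 5 for *LDHA*, and *PGK1* held 3, as did *HIF3A* at its first start. *AHR*, which held 2 matches, was the only gene that rose in dormant cells with sequence at hand. Some genes had several starts, so the tally per gene cannot be set against the 43.2% of single promoters with a match.

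The listed genes with the profile most like that of *HIF3A* were taken as the 10 with the smallest Euclidean distance over the 6 libraries, after the mean of each gene was subtracted on the log2(normalized read count + 1) scale. Of these, 9 are described here, with distances of 1.64 to 3.12. The median was 10.5 over all 1160 other genes and 8.14 over those higher in dormant cells. Since the smallest distances were picked, they lie below these medians by choice. Profiles were not scaled, so the distance depends largely on the size of the difference between the populations. Pearson's r with *HIF3A* was 0.95 to 0.99, a description over 6 points that share the same libraries. It largely reflects the difference between the populations, for which the listed genes were selected. *LUM*, the matrix proteoglycan lumican, was the closest of these, with 4.35, 2.16 and 6.50 normalized read counts in proliferating and 321, 1005 and 4190 in dormant libraries. Like *HIF3A* it was highest in replicate 3 of each population. *APCDD1*, a membrane inhibitor of Wnt signalling, had 0, 2.16 and 17.1 in proliferating and 929, 828 and 1565 in dormant libraries. *SAMD5* had 1.45, 0 and 33.3 in proliferating and 110, 369 and 931 in dormant libraries, dormant levels close to those of *HIF3A*.

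The other 6 were *FMO2*, a flavin monooxygenase, the noncoding *AL021026.1*, *SPARCL1*, *TPSB2*, *CRYAB* and *AC024337.2*. *AL021026.1* and *FMO2* overlap on chromosome 1, and without strand their reads could not be told apart where their exons meet. *TPSB2*, a mast cell tryptase, has near-identical paralogs, so its level is uncertain too. Of the 9 genes, 8 were highest in dormant replicate 3, 5 were lowest in dormant replicate 1, and 7 had their highest proliferating level in replicate 3. Dormant replicate 3 was also the highest for 65.6% of the 576 listed genes higher in dormant cells. The shares for the other counts were not computed. Since the 9 genes were picked for likeness over these same libraries, such shared replicates are partly a result of the choice. The membership was only partly stable, since *LUM* stayed among the 10 in all 8 alternatives tried, *APCDD1* in 7, *SPARCL1* in 4, and *AC024337.2* in 1.

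**Figure D4:**
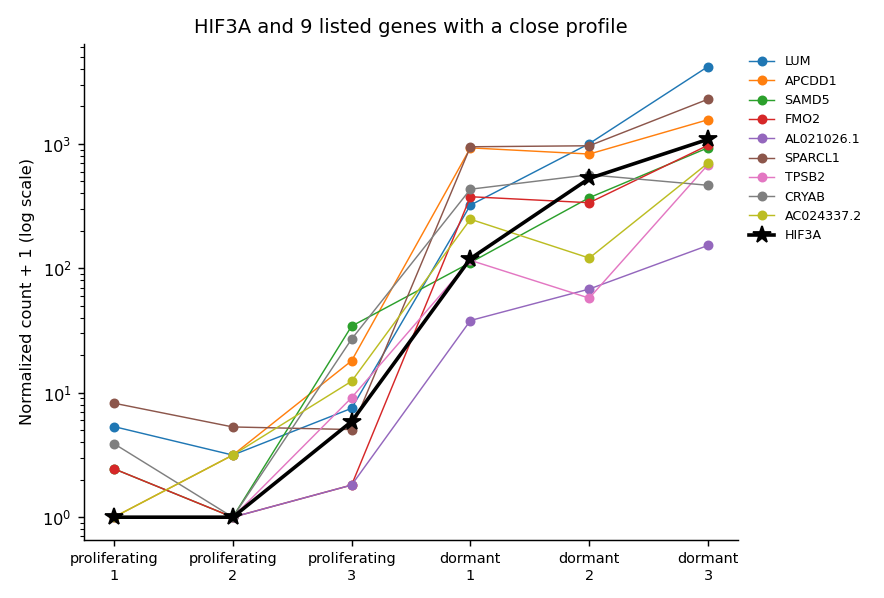
Normalized read counts plus 1, on a log axis, of HIF3A (black) and 9 listed genes with a close profile, in the 6 libraries. Lines only join the values of a gene, since replicates have no order. HIF3A goes from 0 normalized read counts in proliferating replicates 1 and 2 to 1089 in dormant replicate 3, where 8 of the 9 genes are also highest. The 9 genes were picked for likeness over these same libraries.

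Genes that mark other brain cells were read beside *HIF3A*, since *SPARCL1* and *LUM*, with profiles close to its own, belong to the astrocyte or fibroblast lists. In a bulk library, fewer cells of a type and less RNA per cell cannot be told apart. The cells came from mouse brain, so other brain cells in a library would be mouse cells. All 1161 listed genes were selected for a difference, and 49.6% of them rose and 50% fell. The counts of rises and falls among the few listed markers stand beside these shares, and no enrichment was tested. Of 11 fibroblast markers, 5 were listed and all 5 rose (*BGN*, *LUM*, *DCN*, *COL3A1* and *COL1A1*), with a summed level of 4107 to 7492 normalized read counts in proliferating and 46010 to 74506 in dormant libraries. *DCN*, at 937, 738 and 30.4 in the dormant libraries, was lowest in the replicate in which *HIF3A* was highest. Of 17 astrocyte markers, 4 were listed, of which *APOE*, *SPARCL1* and *SLC1A3* rose and *CST3* fell. Their sum, most of it *CST3*, was 143213 to 163008 in proliferating and 57559 to 114090 in dormant libraries. *APOE* was at 0 in proliferating replicates 2 and 3, and *DCN* in replicate 1. Both listed mural markers of 10, *NOTCH3* and *PDGFRB*, rose, with sums of 280 to 468 and 2879 to 5452. The only listed oligodendrocyte marker of 12, *CLDN11*, went from 74.8 to 188 up to 1351 to 3357.

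Of 15 microglia and macrophage markers, 3 were listed. *CD4* rose, from 15.2, 18.3 and 17.9 normalized read counts in proliferating to 1432, 1039 and 1747 in dormant libraries, while *CD74* and *ITGB2* fell. The sum, nearly all of it *CD74*, was 51095 to 106568 in proliferating and 34731 to 45211 in dormant libraries. None of the 12 neuron and 11 endothelial markers was listed. Of 11 markers of MDA-MB-231 cells, 5 were listed (*KRT18*, *LGALS1*, *KRT8*, *CAV1* and *S100A4*). All 5 were lower in dormant cells, as were 50% of all listed genes. Their sums were 425235 to 485337 in proliferating and 229477 to 300385 in dormant libraries, so they were abundant in every library. The part of these marker levels in the *HIF3A* difference was not tested. Reads that mapped to mouse had been discarded by the authors, but multi-mapping reads were counted. Whether any mouse reads were counted for *HIF3A* or for these markers was not tested.

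Around *HIF3A*, 62 other genes are annotated within 500 kb, of which 3 were listed, and all 3 rose in dormant cells. Of all 1161 listed genes, 576 (49.6%) rose, and whether genes near *HIF3A* rose more often was not tested. The scaffold gene of RNA 3' end processing *SYMPK* had a mean of 2059 ± 146 in proliferating and 3935 ± 391 in dormant libraries (SD, n = 3), a log2 fold change of 0.93 (edgeR adjusted p = 0.00489). *SLC1A5*, a glutamine transporter, had means of 16826 ± 3620 and 34465 ± 4258 and a log2 fold change of 1.03 (adjusted p = 0.00345). Both p-values were adjusted over genes already called different between these same libraries, so they carry little beyond size and direction. Neither *SYMPK* nor *SLC1A5* passed in edgeR when p-values were adjusted over all genes of the reference gene table. The third, *AC008622.2*, overlaps the start of *SLC1A5* on the opposite strand, and without strand their reads could not be told apart where their exons meet. Its log2 fold change of 1.33 may therefore not be separate from that of *SLC1A5*. The 3 rises are therefore not 3 separate observations. None of the 3 was near the detection limit in proliferating cells, unlike *HIF3A*.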

How the data were processed

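Total RNA of sorted MDA-MB-231 cells was made into Smart-seq2 libraries. Per the labels and methods, the authors used FastQC 0.11.8, Cutadapt, and STAR 2.7 on joined human GRCh38.p12 and mouse GRCm38.p6 assemblies with GENCODE release 31. They counted reads with Rsubread, multi-mapping reads included, and discarded mouse reads. The deposited estimated counts per gene are unnormalized, with 43.2% to 49.6% of values in a library not whole. The deposited normalized signal values are rounded counts divided by DESeq2 size factors (0.724 to 1.38), recomputed here to within 4.99e-05, and their mean over libraries is a signal too. The authors' comparison columns, a fold ratio, its log2 value, p-values and score values (standard error and statistic), were not used. Counts of the 1161 listed genes summed to 7978657 to 17928784 per library, which is not the depth of the libraries.

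Estimated counts were rounded and fitted with edgeR 4.0.16 (R 4.3.3, quasi-likelihood test, two-sided) on all 6 libraries with the authors' size factors, population as the only term, and Benjamini-Hochberg adjustment over the table with a threshold of 0.05. The spread (common dispersion 0.182) was estimated from genes selected for a difference. DESeq2 1.42.0, limma 3.58.1 on log2(normalized + 1), other scalings, pseudocounts of 0.5 and 5, a low-count filter, a replicate block and leaving out each library were alternatives. Fits were tested on simulated data. *HIF3A*, the gene lists and the tests were chosen with earlier results of these data known. Named genes are *HIF3A*, all listed members of the 4 pathway lists and up to 5 per direction of each marker list, the 10 closest profiles, of which 1 is not reported here, and listed genes within 500 kb. Of the listed identifiers, 1157 matched GENCODE release 44. Both populations of a number were sorted from 1 pool of mice. Their deviations from the group means correlated at 0.0567, -0.0183 and 0.00125 over genes. Protein sequences were not used here.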

Additional observations from a re-analysis of the deposited data

How the results depend on the processing

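With the replicate block 1097 listed genes passed (544 higher, 553 lower) as compared to 1157, no pathway gene lost its call, and the fitted log2 fold change of *HIF3A* was 8.85 as compared to 8.34. Adjusted over the 62700 genes of the reference gene table, edgeR called 1 listed gene and limma 73 (6 higher, 67 lower). Of the oxygen sensing, bHLH-PAS, glycolytic and other target lists both then called 0, while DESeq2 so adjusted called 1041 listed genes. This adjustment of limma and DESeq2, and the bounds of *POU5F1* by pool and without 1 library, were chosen after seeing the data. The larger number of p-values adjusted for is the only change in the edgeR count. The mean log2 difference of *HIF3A*, 7.83, was 6.05 with a pseudocount of 5, because both populations are raised by it, and 7.12 to 8.72 without 1 library. The fitted value was 7.50 to 12.21 without 1 library, the highest without proliferating replicate 3, the only proliferating library with a rounded *HIF3A* count above 0. Of the 10 genes most like *HIF3A*, 3 were shared with Pearson's correlation, 5 with a pseudocount of 5, and 4 to 8 without 1 library. The other alternatives kept the number of calls within 1.5 times, and each of the 14 pathway genes kept its direction in 12 of 12 refits. The libraries cannot show *HIF3A* below about 3 counts in proliferating cells.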
